A study of Mus musculus with 12 samples.

Results

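The genes described here are 43 matrix glycoproteins, proteoglycans and elastic fibre proteins, taken by symbol from a table of 35275 mouse genes. Each of the 43 symbols has a single row in the table. Kidneys were collected from 12 mice at 6 months of age, and RNA-Seq was performed on poly(A) RNA from each kidney. The mice were C57BL/6J, 4 for each of 3 genotypes, WT, RC/RC or RC/RC:*Casp1*KO, with both sexes equally represented (2 each) in a group. RC/RC mice are homozygous for RC, a hypomorphic missense knock-in allele of *Pkd1*, the gene for polycystin-1 that is mutated in most patients with autosomal dominant polycystic kidney disease (ADPKD), and they form renal cysts slowly. RC/RC:*Casp1*KO mice carry the same 2 RC alleles and, in all cells from the germline on, a small homozygous TALEN deletion in *Casp1*, which encodes Caspase-1, the protease activated by inflammasomes. The RC/RC mice are therefore the group that both the WT and the RC/RC:*Casp1*KO mice are compared with, and the comparisons share their 4 libraries. The table identifies a mouse by its group and a mouse number, and no source used here gives the sex of a mouse.

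The extracellular matrix of the kidney consists of basement membranes around tubules, capillaries and glomeruli and of a sparse interstitial matrix that thickens in fibrosis. Collagens give this matrix its tensile strength. The genes described here encode much of what is built around the collagens. Adhesive glycoproteins such as fibronectin bind cells through integrins, and matricellular proteins such as periostin and the thrombospondins adjust how cells respond to matrix. Small leucine-rich proteoglycans coat collagen fibrils and bind growth factors. Fibrillins, microfibril-associated proteins and fibulins assemble the microfibrils on which elastin is deposited, and latent TGF-β binding proteins tether TGF-β to those microfibrils. Nidogens, perlecan and versican belong to basement membranes and to hydrated pericellular matrix. In cystic kidneys the interstitium around cysts is known to scar as disease advances.

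Counts were scaled to a common library size with TMM factors and are given as CPM. Mice carry the names of the table, and values are given in the order B6_2, B6_3, B6_4 and B6_6 for WT, then RC105, RC139, RC140 and RC143 for RC/RC, then Del3_42, Del3_60, Del3_70 and Del3_105 for RC/RC:*Casp1*KO. The libraries held 18019819 to 24869454 counted reads, and a count of 3, taken as the floor of detection, corresponds to 0.121 to 0.166 CPM before the TMM factor. Fold changes are log2 values ± standard error (SE) from edgeR's quasi-likelihood test on 8 mice, and a gene was called changed at a Benjamini-Hochberg adjusted p under 0.05. *Casp1* itself checked the labels, at 2.05, 1.29, 1.31 and 1.41 CPM in WT, at 3.33, 3.86, 4.24 and 2.62 CPM in RC/RC, and at 0.665, 0.382, 1.06 and 0.667 CPM in RC/RC:*Casp1*KO. It was higher in RC/RC than in WT (log2 fold change 1.21 ± 0.25, adjusted p = 0.0142) and lower in RC/RC:*Casp1*KO than in RC/RC (log2 fold change -2.35 ± 0.32, adjusted p = 0.00514), with no overlap between mice in either comparison. *Pkd1* transcript, whose RC allele is a missense change, was not called in RC/RC against WT (log2 fold change 0.06 ± 0.20, adjusted p = 0.878).

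Several libraries stood apart and bear on the values below. The summed CPM of 5 markers of perirenal fat (*Adipoq*, *Plin1*, *Cfd*, *Lep* and *Cidec*) was 1337 in mouse RC139 and 141.6 in mouse RC143. It was 28.3 in mouse B6_4, and 27.6 and 53.0 in mice Del3_42 and Del3_105. In the other 7 mice it was 0.191 to 1.43, and no adiponectin (*Adipoq*) reads were counted in B6_3, RC140 or Del3_60. Adipsin (*Cfd*) was the most abundant of the markers, at 1021 CPM in mouse RC139 and 103 CPM in mouse RC143, and *Adipoq* was at 99.8 and 11.6 CPM in the same mice. Mouse RC139 also had the smallest library (18019819 reads) and the largest share of mitochondrial reads (12.1%), and it was the highest RC/RC mouse for 40 of the 43 genes. Mouse RC143, also with fat markers, was the lowest RC/RC mouse for 33 of them. Among the RC/RC:*Casp1*KO mice, Del3_70 was the highest for 30 genes and Del3_42 the lowest for 30. Mouse B6_4 carried more of 5 urothelial markers (35.4 CPM summed, against 2.31 to 7.81 CPM in the other WT mice) and of 3 mesothelial markers (16.4 against 0.707 to 5.05 CPM). The urothelial sum was 10.2, 32.4, 7.79 and 19.6 CPM in the RC/RC mice and 9.07 to 19.2 CPM in RC/RC:*Casp1*KO. The mesothelial sum was 4.20 to 13.5 CPM in RC/RC and 4.00 to 8.82 CPM in RC/RC:*Casp1*KO. Counts over the 43 genes and over their role groups are therefore also given without mouse RC139, and those over the 43 genes also without the mice that carried fat markers. Every group also held 2 mice with under 10000 CPM of *Kap*, an androgen-regulated proximal tubule gene (2339 to 6892 CPM), and 2 with more (12978 to 18364 CPM). The mice with less *Kap* were B6_2, B6_3, RC105, RC139, Del3_60 and Del3_105. No sex was assigned from this level, and it was used as a block in a further fit, chosen after the data were seen. All 12 libraries carried kidney markers, with 6 proximal tubule genes, *Kap* among them, summing to 6329 to 29886 CPM. In whole kidney, more cells of a type and more RNA per cell cannot be told apart.

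The first comparison asks how cystic RC/RC kidneys differ from WT. Matrix genes were higher in RC/RC kidneys: 30 of the 43 rose (69.8%) and none fell, where 9.76% of the 15243 genes tested rose and 3.18% fell. No gene was lower with DESeq2 or at an unadjusted p under 0.05 in edgeR, and 37 were higher at that unadjusted p (17.3% of all genes were). The median log2 fold change of the 43 was 1.39, from -0.05 to 5.57, beside -0.02 for all genes tested. For 31 genes all 4 RC/RC mice lay above all 4 WT mice, which was the case for 12.6% of all genes tested. Summed over the 43 genes, CPM were 1483 ± 206 in WT and 3967 ± 1551 in RC/RC (mean ± SD, n = 4). All 43 genes passed the filter on low counts, and *Thbs4*, *Vtn*, *Ltbp2*, *Fbn2*, *Mfap5* and *Vcan* were the 6 with under 10 reads in some WT mouse. Of these, *Ltbp2*, *Mfap5* and *Fbn2* are among the 30, and a filter of at least 10 reads in every mouse, which left 37 of the 43 genes, gave 27 higher (8.16% of 13730 genes). The number higher was 24 to 35 with any single mouse left out, and 23 of the 30 calls held in all 8 cases, the others being *Aspn*, *Efemp1*, *Lum*, *Mfap2*, *Ogn*, *Smoc1* and *Tnc*. Without mouse RC139, 24 genes were higher (6.45% of all genes). Calls were gained by *Thbs3*, *Ltbp3*, *Fbn1*, *Eln* and *Emilin1* without mouse RC143, by *Emilin1* without B6_2, by *Thbs4* without B6_3, by *Vcan* without B6_4 and by *Thbs3* without B6_6. With *Kap* level as a block 35 were higher (12.3% of all genes), *Thbs3*, *Thbs4*, *Ltbp3*, *Eln* and *Emilin1* being added, and within the mice of lower and of higher *Kap* both RC/RC mice were above both WT mice for 41 and 36 of the 43 genes (30.0% and 34.1% of all genes). Without both RC/RC mice over 100 CPM of fat markers 24 were higher (5.56% of all genes), and 27 with DESeq2 (6.94%). Without all 5 mice over 10 CPM, which left 3 WT and 2 RC/RC mice, 19 were higher (4.30% of all genes), and 29 with DESeq2 (6.41%). The median log2 fold change was then 1.20. In mice RC105 and RC140, whose fat markers summed to 0.306 and 0.430 CPM, 36 of the 43 genes were above every WT mouse. So were 18.7% of 15428 genes, the set tested in RC/RC:*Casp1*KO against RC/RC.

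The second comparison asks what the loss of Caspase-1 changes in RC/RC kidneys. Of the 43 genes, 18 were lower in RC/RC:*Casp1*KO than in RC/RC kidneys (41.9%) and none was higher, where 4.41% of the 15428 genes tested were lower and 7.23% higher. At an unadjusted p under 0.05, 27 were lower and none higher, against 16.4% and 15.3% of all genes, and DESeq2 called 27 lower and none higher, against 7.71% and 9.61%. The median log2 fold change was -0.90, from -2.21 to 0.04, beside -0.03 for all genes. For 19 genes each RC/RC:*Casp1*KO mouse was below each RC/RC mouse, against 8.67% of all genes. The summed CPM was 1871 ± 517 in RC/RC:*Casp1*KO (mean ± SD, n = 4), and the individual sums were 1289, 1684, 2513 and 1996, of which the highest lay just under the lowest RC/RC sum of 2608. With *Kap* level as a block 23 were lower (7.27% of all genes), *Thbs1*, *Ltbp4*, *Efemp1*, *Aspn* and *Nid1* being added, and none was higher, in edgeR also at an unadjusted p under 0.05, and within the mice of lower and of higher *Kap* both RC/RC:*Casp1*KO mice were below both RC/RC mice for 37 and 23 of the 43 genes (30.8% and 25.3% of all genes). The count depended on single mice. It was 4 without mouse Del3_60, 5 without Del3_105 and 5 without Del3_42, 6 without mouse RC140 and 11 without mouse RC139. The share of all genes called lower also fell without mouse RC139, from 4.41% to 0.864%. That share is not given here for the other mice left out. Only *Dcn*, *Mfap4* and *Fbln1* kept their call whichever of the 8 mice was left out. Calls were gained by *Fn1*, *Thbs2*, *Ltbp2*, *Fbln2*, *Mfap2* and *Mfap5* without mouse Del3_70, by *Thbs1*, *Ltbp4*, *Efemp1*, *Mfap2*, *Aspn* and *Nid1* without mouse RC143, and by *Ltbp4* without mouse RC105. Without the 2 RC/RC mice over 100 CPM of fat markers edgeR called none of 16025 genes in either direction, although 25 of the 43 were lower at an unadjusted p under 0.05 (9.02% of all genes), while DESeq2 called 19 of the 43 lower (3.30% of all genes). The median log2 fold change was then -0.83. Without all 5 mice over 10 CPM, which left 2 mice against 2, edgeR again called none. At an unadjusted p under 0.05, 19 of the 43 were then lower (3.52% of all genes), DESeq2 called 8 lower (0.349%), and the median was -0.68. Mice RC105 and RC140 were both above all 4 RC/RC:*Casp1*KO mice for 25 of the 43 genes, against 15.8% of all genes.

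**Figure D1:**
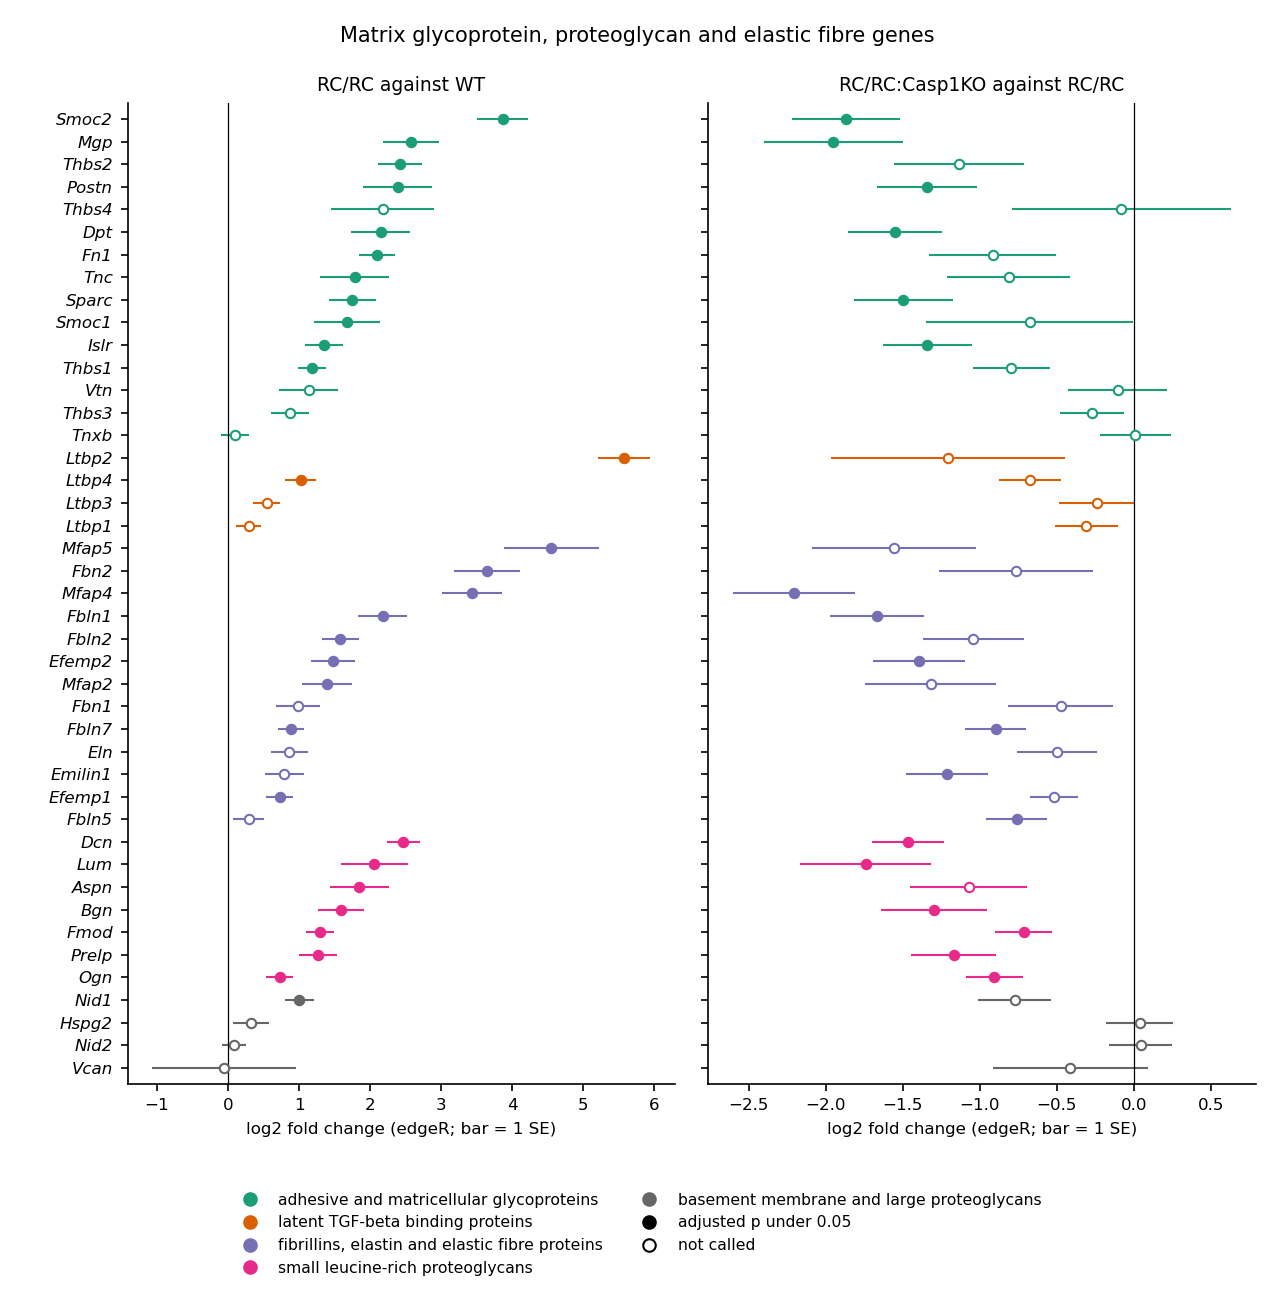
Log2 fold changes of the 43 matrix genes, grouped by role, in RC/RC against WT (left) and in RC/RC:*Casp1*KO against RC/RC (right), with bars of 1 SE and filled points for genes called at an adjusted p under 0.05. On the left 30 points are filled, all to the right of 0, and on the right 18 are filled, all to the left of 0, and both sides use the same 4 RC/RC mice.

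RC/RC:*Casp1*KO kidneys were also compared with WT. Of 42 genes tested, 2 were higher (4.76%), *Dcn* and *Smoc2*, and none was lower, where 1.13% of 15346 genes were higher and 0.893% lower. At an unadjusted p under 0.05, 13 were higher and 1, *Fbln5*, was lower, against 11.8% and 9.99% of all genes. DESeq2 called 9 higher and none lower, against 4.37% and 3.21%. The median log2 fold change was 0.39, beside 0.01 for all genes. Leaving out all 5 mice over 10 CPM of fat markers (3 WT and 2 RC/RC:*Casp1*KO mice remained) gave 0 higher in edgeR (0.120% of all genes), 13 higher at an unadjusted p under 0.05 (9.43%) and 8 higher with DESeq2 (2.44%). Without one of the mice in turn, 1 to 3 were higher. The share of all genes higher was 1.13% with all mice and is not given here for these fits. With *Kap* level as a block 7 were higher and 1, *Fbln5*, was lower, against 4.51% and 3.68% of all genes, and *Thbs4*, *Ltbp2*, *Ltbp4*, *Mfap5* and *Fmod* were the added higher genes.

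Levels were compared between genes per length, as FPKM computed here from read counts and listed gene lengths. *Mgp*, for matrix Gla protein, an inhibitor of soft tissue calcification, was the most abundant of the 43 in every group, at 170.5 ± 63.1 FPKM in WT, 1014 ± 545 FPKM in RC/RC and 265 ± 149 FPKM in RC/RC:*Casp1*KO (mean ± SD, n = 4). *Sparc*, a collagen-binding matricellular protein, and *Bgn*, for the proteoglycan biglycan, followed in RC/RC at 239 ± 111 and 225 ± 112 FPKM, which did not differ beyond their spread. Decorin (*Dcn*) was the fourth in RC/RC, at 91.6 ± 33.5 FPKM. *Smoc2*, a calcium-binding matricellular protein of the SPARC family, ranked 22 of 43 in WT at 2.95 ± 1.11 FPKM, 5 in RC/RC at 43.03 ± 19.0 FPKM and 10 in RC/RC:*Casp1*KO at 11.9 ± 5.01 FPKM. Genes with a mean over 10 FPKM numbered 11 in WT, 20 in RC/RC and 14 in RC/RC:*Casp1*KO. At the lower end, *Fbn2*, *Vcan* and *Vtn* stayed under 1 FPKM in all 3 groups.

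**Figure D2:**
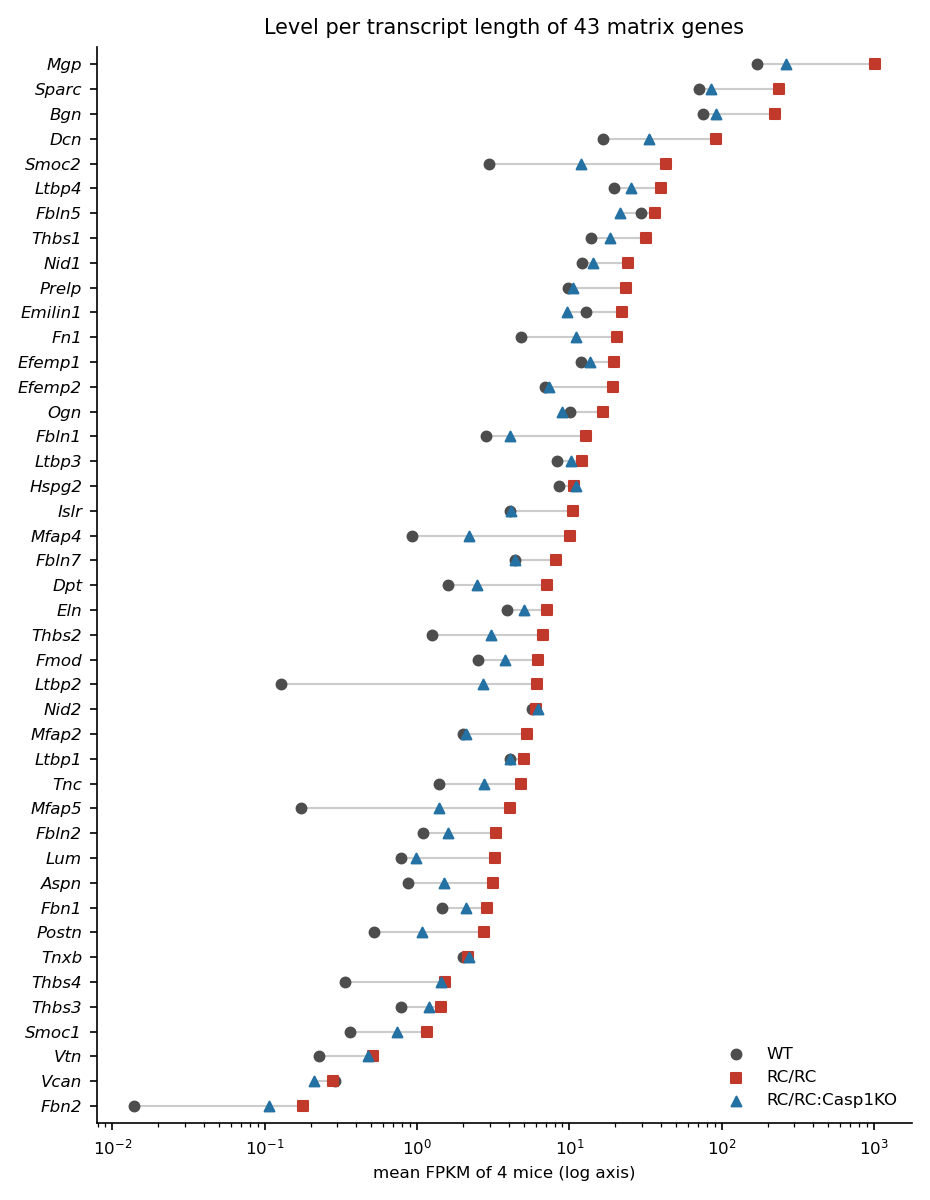
Mean FPKM of 4 mice on a log axis for each of the 43 genes in WT (circles), RC/RC (squares) and RC/RC:*Casp1*KO (triangles), sorted by the RC/RC level. The order is headed by *Mgp*, *Sparc*, *Bgn* and *Dcn*. The widest gap between WT and RC/RC is that of *Ltbp2*, from 0.128 to 6.14 FPKM, with 9 to 24 reads in a WT mouse.

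Among the 15 adhesive and matricellular glycoproteins, 11 rose in RC/RC (73.3%, against 9.76% of all genes) and 6 were lower in RC/RC:*Casp1*KO than in RC/RC (40%, against 4.41%). Without mouse RC139 these counts were 9 and 4, against 6.45% and 0.864% of all genes. *Smoc2* (ENSMUSG00000023886, mm10 chr17:14279506-14404790) had the largest rise of the 15 in RC/RC. Its CPM were 13.0, 6.43, 6.34 and 7.73 in WT, 99.4, 197, 119 and 71.9 in RC/RC and 21.6, 29.6, 54.2 and 29.2 in RC/RC:*Casp1*KO. The 3 groups did not overlap, and every RC/RC:*Casp1*KO mouse lay between them. The log2 fold change was 3.86 ± 0.36 in RC/RC against WT (adjusted p = 0.000369), -1.87 ± 0.35 in RC/RC:*Casp1*KO against RC/RC (adjusted p = 0.0155) and 2.01 ± 0.33 in RC/RC:*Casp1*KO against WT (adjusted p = 0.0226). The first held with any mouse left out. The second was lost without mouse Del3_105 (adjusted p = 0.0539) and the third without B6_3, B6_6 or Del3_105 (adjusted p up to 0.0738). Fibronectin (*Fn1*), the adhesive glycoprotein laid down early in scar, was at 41.8, 31.8, 39.2 and 47.3 CPM in WT, at 164, 261, 154 and 108 CPM in RC/RC and at 44.2, 62.1, 175 and 85.1 CPM in RC/RC:*Casp1*KO. It rose in RC/RC (log2 fold change 2.10 ± 0.26, adjusted p = 0.00126). Mouse Del3_70 lay within the RC/RC range, and the difference from RC/RC was not called (-0.92 ± 0.41, adjusted p = 0.159). Without Del3_70 it was called, at -1.43 (adjusted p = 0.0311).

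**Figure D3:**
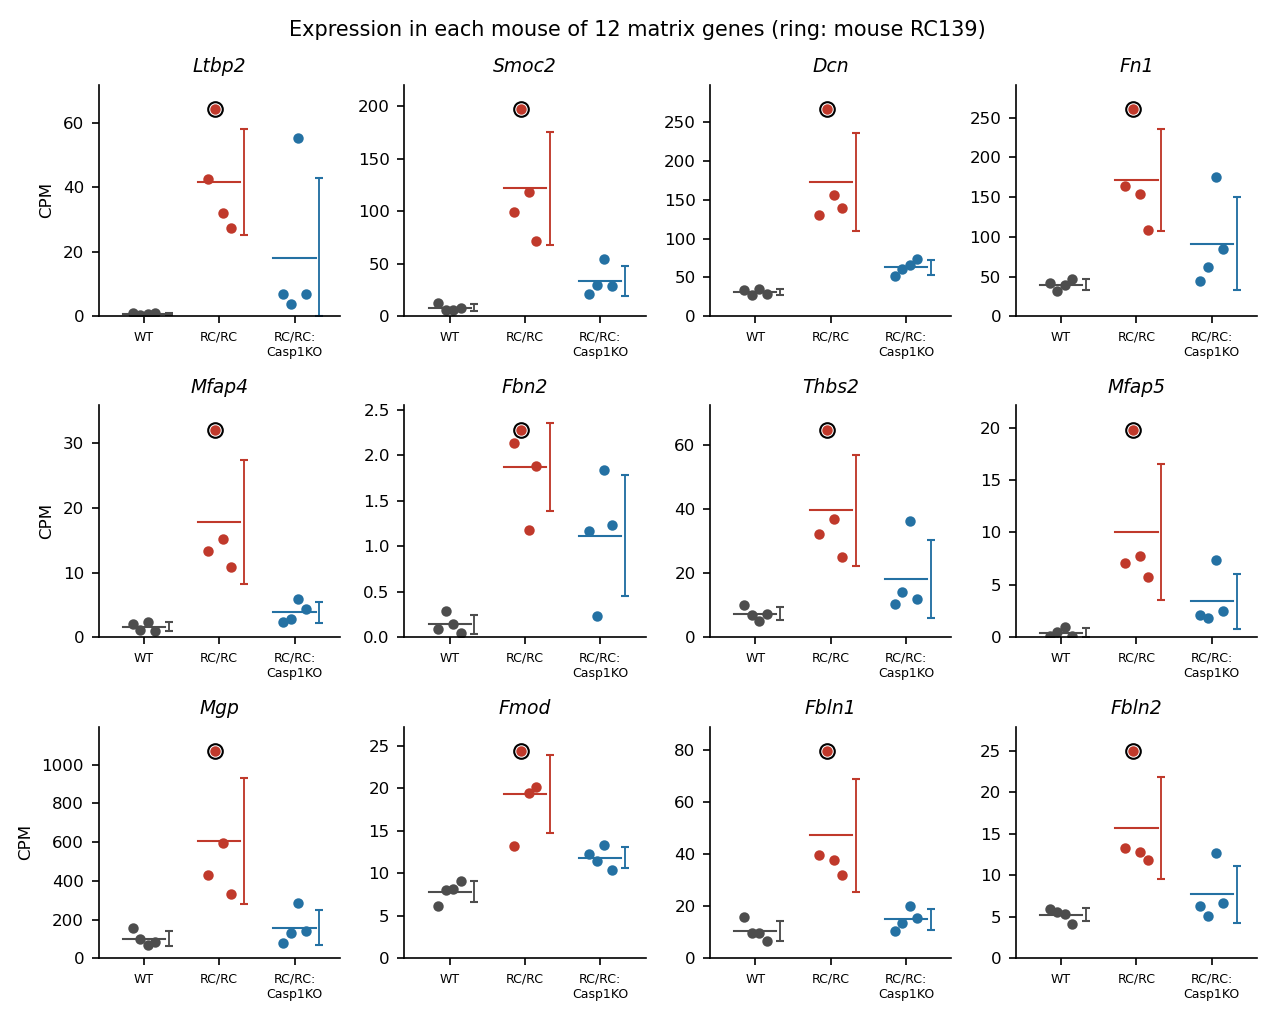
CPM in each of the 12 mice for the 12 matrix genes with the smallest p in RC/RC against WT. Points are mice, horizontal lines are group means, vertical bars are SD (n = 4, shown from 0 where the SD exceeds the mean), and a ring marks mouse RC139. All RC/RC points lie above all WT points in every panel, which choosing genes by p in that same comparison favours. Mouse Del3_70 lies well above the other 3 mice of its group for *Ltbp2*, *Thbs2* and *Mfap5*.

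Thrombospondins bind many matrix proteins and cell receptors, and *Thbs1* can activate latent TGF-β. *Thbs1* CPM were 67.8, 87.4, 98.0 and 72.2 in WT, 208, 222, 181 and 129 in RC/RC and 63.2, 97.9, 137 and 131 in RC/RC:*Casp1*KO, and *Thbs1* rose in RC/RC (log2 fold change 1.18 ± 0.19, adjusted p = 0.00472) without a call in RC/RC:*Casp1*KO against RC/RC (-0.79 ± 0.25, adjusted p = 0.0669, and 0.0434 with *Kap* level as a block). Mice Del3_70 and Del3_105 were just above the lowest RC/RC mouse. *Thbs2* CPM were 10.1, 6.86, 5.23 and 7.40 in WT, 32.1, 64.5, 36.8 and 25.05 in RC/RC and 10.5, 14.1, 36.3 and 11.9 in RC/RC:*Casp1*KO. The log2 fold change of *Thbs2* was 2.42 ± 0.31 in RC/RC (adjusted p = 0.00166) and -1.13 ± 0.42 in RC/RC:*Casp1*KO against RC/RC (adjusted p = 0.104), and in the latter group only mouse Del3_70 reached the RC/RC range. Without that mouse *Thbs2* was called lower, at -1.70 (adjusted p = 0.0174). The pentameric thrombospondins *Thbs3* and *Thbs4* were not called in either comparison (adjusted p = 0.0639 and 0.0799 in RC/RC against WT, and 0.0398 and 0.0231 with *Kap* level as a block).

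Periostin (*Postn*), a matricellular protein of activated fibroblasts, was at 2.14, 1.05, 4.63 and 1.27 CPM in WT, at 7.84, 19.96, 11.2 and 8.66 CPM in RC/RC and at 3.33, 4.16, 6.53 and 4.86 CPM in RC/RC:*Casp1*KO. Mouse B6_4 was the highest WT mouse and within the RC/RC:*Casp1*KO range. *Postn* rose by 2.39 ± 0.49 (log2) in RC/RC (adjusted p = 0.0128) and changed by -1.34 ± 0.32 in RC/RC:*Casp1*KO against RC/RC (adjusted p = 0.0333, and 0.0622 without mouse RC139). *Sparc* CPM were 230.1, 166, 117 and 139.6 in WT, 435, 912, 522 and 328 in RC/RC and 148, 164, 281 and 192 in RC/RC:*Casp1*KO. Every RC/RC mouse was above every mouse of the other groups, whose ranges overlapped. *Sparc* rose in RC/RC (1.75 ± 0.33, adjusted p = 0.00883) and was lower in RC/RC:*Casp1*KO than in RC/RC (-1.50 ± 0.32, adjusted p = 0.0237, and 0.0707 without mouse Del3_105). *Mgp* CPM were 156, 97.4, 70.004 and 84.3 in WT, 429, 1068, 594 and 334 in RC/RC and 77.7, 129.9, 286 and 139.9 in RC/RC:*Casp1*KO. All 4 RC/RC mice exceeded the mice of the other groups, which overlapped each other. Its log2 fold change was 2.57 ± 0.39 in RC/RC (adjusted p = 0.00346) and -1.95 ± 0.45 in RC/RC:*Casp1*KO against RC/RC (adjusted p = 0.0293, and 0.0655 without mouse RC139). Without all 5 mice over 10 CPM of fat markers the latter was -1.30 (adjusted p = 0.419).

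Dermatopontin (*Dpt*), which binds decorin and promotes collagen fibril assembly, was at 2.19, 1.43, 2.46 and 4.43 CPM in WT, at 8.98, 20.8, 8.48 and 8.62 CPM in RC/RC and at 4.16, 3.70, 4.51 and 3.72 CPM in RC/RC:*Casp1*KO. The other 3 RC/RC mice differed little and mouse RC139 was more than 2 times as high as each of them. *Dpt* rose in RC/RC (log2 fold change 2.15 ± 0.41, adjusted p = 0.00974) and was lower in RC/RC:*Casp1*KO (-1.55 ± 0.31, adjusted p = 0.0179), and the second call was lost without Del3_60 and without Del3_105 (adjusted p up to 0.0593). Without mouse RC139 the adjusted p were 0.0184 and 0.0135, and the second log2 fold change was -1.10. *Islr*, which encodes meflin, a marker of mesenchymal stromal cells, was at 10.9, 9.48, 8.85 and 7.25 CPM in WT, at 18.4, 38.7, 18.8 and 17.5 CPM in RC/RC and at 7.21, 7.45, 12.4 and 10.1 CPM in RC/RC:*Casp1*KO. The WT and RC/RC:*Casp1*KO ranges of *Islr* overlapped and both lay below RC/RC. Its log2 fold changes were 1.35 ± 0.27 (adjusted p = 0.0114) and -1.34 ± 0.29 (adjusted p = 0.0238) in the 2 comparisons with RC/RC. Tenascin-C (*Tnc*) and *Smoc1* also rose in RC/RC, by 1.78 and 1.67 on the log2 scale, but their adjusted p of 0.0418 and 0.0437 became 0.112 and 0.0961 without mouse RC139, where the log2 fold change of *Smoc1* was 1.06. The call of *Tnc* held only without B6_4 or without RC143 among the 8 mice left out, and without B6_4, the highest WT mouse, its log2 fold change was 2.39 (adjusted p = 0.00701). The call of *Smoc1* held only without RC105 or without RC143. Tenascin-X (*Tnxb*), an organizer of collagen and elastic networks, had a log2 fold change of 0.11 ± 0.20 (adjusted p = 0.755), and vitronectin (*Vtn*), a plasma adhesive protein made mainly by liver, was at 0.399 CPM in WT compared with 0.889 CPM in RC/RC (adjusted p = 0.107).

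The 4 latent TGF-β binding proteins hold TGF-β in the matrix, except *Ltbp2*, which does not bind it and belongs to microfibrils. *Ltbp2* had the largest fold change of the 43 genes, and its size rests on few WT reads (22, 9, 17 and 24). Its CPM were 1.05, 0.429, 0.855 and 1.13 in WT, 42.7, 64.2, 32.1 and 27.3 in RC/RC and 6.82, 3.78, 55.4 and 6.96 in RC/RC:*Casp1*KO. WT and RC/RC were far apart, whereas mice Del3_42, Del3_60 and Del3_105 lay between the groups and Del3_70 lay within the RC/RC range. Its log2 fold change was 5.57 ± 0.37 in RC/RC against WT (adjusted p = 6.52e-05), -1.21 ± 0.76 in RC/RC:*Casp1*KO against RC/RC (adjusted p = 0.304) and 4.39 ± 0.94 in RC/RC:*Casp1*KO against WT (adjusted p = 0.0526), the last with all 4 RC/RC:*Casp1*KO mice above WT. The latter 2 values moved most without mouse Del3_70, when they were -2.83 (adjusted p = 0.00725) and 2.75 (adjusted p = 0.0183). The last was also called without Del3_42 (adjusted p = 0.0457), and with *Kap* level as a block and all mice (adjusted p = 0.0158). *Ltbp4*, which also guides elastic fibre assembly, was the most abundant of the 4 per length, at 19.6 FPKM in WT and 40.0 FPKM in RC/RC. *Ltbp4* CPM were 129.9, 118, 90.1 and 85.1 in WT, 182, 306, 207 and 167 in RC/RC and 109, 145, 133 and 157 in RC/RC:*Casp1*KO. Each RC/RC mouse was above each mouse of the other groups. It rose in RC/RC (log2 fold change 1.03 ± 0.22, adjusted p = 0.0147), and its adjusted p against RC/RC:*Casp1*KO was 0.0588. *Ltbp1* and *Ltbp3* were not called, with log2 fold changes of 0.29 ± 0.18 and 0.55 ± 0.19 in RC/RC. With *Kap* level as a block *Ltbp4* was called lower in RC/RC:*Casp1*KO than in RC/RC (-0.67, adjusted p = 0.0294) and *Ltbp3* higher in RC/RC than in WT (0.52, adjusted p = 0.0107). Without the block edgeR called 2 of the 4 genes higher in RC/RC than in WT (9.76% of all genes). Also without it, edgeR called none of the 4 lower in RC/RC:*Casp1*KO than in RC/RC (4.41% of all genes). There 1 was lower at an unadjusted p under 0.05 (16.4% of all genes), and DESeq2 called 1 lower (7.71%).

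Of the 13 fibrillins, elastin and elastic fibre proteins, 9 rose in RC/RC, against 9.76% of all genes, and 6 were lower in RC/RC:*Casp1*KO than in RC/RC, against 4.41%. Without mouse RC139 these counts were 7 and 4, against 6.45% and 0.864% of all genes. The 9 include *Fbn2* and *Mfap5*, and of the 11 genes with at least 10 reads in every mouse 7 rose. The microfibril-associated protein *Mfap4*, an elastic fibre component that binds integrins, was at 2.10, 1.10, 2.36 and 1.04 CPM in WT, at 13.3, 32.0, 15.2 and 10.8 CPM in RC/RC and at 2.38, 2.83, 5.89 and 4.43 CPM in RC/RC:*Casp1*KO. The groups did not overlap, although mouse Del3_42 and mouse B6_4 nearly met. Its log2 fold change was 3.43 ± 0.42 in RC/RC (adjusted p = 0.00132) and -2.21 ± 0.40 in RC/RC:*Casp1*KO against RC/RC (adjusted p = 0.0135), the largest decrease among the 43 genes. *Mfap5*, which encodes a glycoprotein of fibrillin microfibrils, was at 0.143, 0.476, 1.01 and 0.0942 CPM in WT, at 7.07, 19.7, 7.79 and 5.75 CPM in RC/RC and at 2.11, 1.83, 7.36 and 2.48 CPM in RC/RC:*Casp1*KO. Only 2 WT mice had 10 or more reads (3, 10, 20 and 2), so *Mfap5* passed the filter through the RC/RC mice, and its call in RC/RC against WT (log2 fold change 4.55 ± 0.67) rests on few WT reads. The log2 fold change was 3.97 without mouse RC139 and 5.34 without B6_4. In RC/RC:*Casp1*KO, mouse Del3_70 lay within the RC/RC range (adjusted p = 0.0838 between these groups, and 0.0234 at -2.23 without that mouse). Fibrillin-2 (*Fbn2*), the fibrillin of developing tissues, was close to the floor in WT, with 2, 6, 3 and 1 reads (0.0953, 0.286, 0.151 and 0.0471 CPM), and was at 2.14, 2.28, 1.18 and 1.89 CPM in RC/RC and at 1.16, 0.229, 1.84 and 1.24 CPM in RC/RC:*Casp1*KO. No WT mouse had 10 reads, so *Fbn2* was tested in RC/RC against WT only because the RC/RC mice passed the filter, and its call there (log2 fold change 3.64 ± 0.46) rests on 12 WT reads in all. Between the RC/RC groups it was not called (-0.77 ± 0.50, adjusted p = 0.321). Fibrillin-1 (*Fbn1*) and elastin (*Eln*) themselves were not called, at 0.99 ± 0.31 and 0.87 ± 0.26 in RC/RC (adjusted p = 0.0637 and 0.0559, the latter 0.0359 with *Kap* level as a block), although all 4 RC/RC mice were above all 4 WT mice for both.

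The fibulins bridge elastin, microfibrils and basement membrane. *Fbln1* CPM were 15.7, 9.81, 9.76 and 6.50 in WT, 39.9, 79.5, 37.6 and 31.9 in RC/RC and 10.4, 13.7, 20.2 and 15.6 in RC/RC:*Casp1*KO. RC/RC lay above the other groups, and these overlapped. It rose in RC/RC (log2 fold change 2.17 ± 0.34, adjusted p = 0.00393) and was lower in RC/RC:*Casp1*KO (-1.67 ± 0.30, adjusted p = 0.0142), and both calls held with any mouse left out. *Fbln2* CPM were 5.96, 5.57, 5.33 and 4.15 in WT, 13.3, 24.9, 12.8 and 11.8 in RC/RC and 6.32, 5.08, 12.7 and 6.67 in RC/RC:*Casp1*KO. *Fbln2* rose in RC/RC (1.58 ± 0.26, adjusted p = 0.00468) and was not called between the RC/RC groups (adjusted p = 0.0665), where mouse Del3_70 overlapped RC/RC and without it *Fbln2* was called at -1.39 (adjusted p = 0.0241). *Fbln7*, also called TM14, was at 16.6, 13.3, 13.3 and 13.2 CPM in WT, at 22.8, 34.7, 27.8 and 19.5 CPM in RC/RC and at 10.6, 14.6, 16.8 and 14.5 CPM in RC/RC:*Casp1*KO. Again RC/RC was separate from the other groups, and these overlapped. The log2 fold change of *Fbln7* was 0.89 ± 0.18 in RC/RC (adjusted p = 0.0124) and -0.90 ± 0.20 in RC/RC:*Casp1*KO against RC/RC (adjusted p = 0.0249, and 0.0595 without mouse RC139).

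*Fbln5*, which tethers elastin to cells and is needed for elastic fibre assembly, was the most abundant elastic fibre gene per length, and it did not rise. Its CPM were 234, 179, 133 and 146 in WT, 177, 286, 216 and 168 in RC/RC and 106, 135, 109 and 154 in RC/RC:*Casp1*KO. WT and RC/RC overlapped (log2 fold change 0.29 ± 0.22, adjusted p = 0.407), and each RC/RC:*Casp1*KO mouse was below each RC/RC mouse (-0.76 ± 0.20, adjusted p = 0.0403, and 0.0961 without mouse RC139). *Emilin1*, an elastic fibre glycoprotein that restrains TGF-β processing, showed the same calls, with 0.79 ± 0.27 in RC/RC against WT (adjusted p = 0.0875, and 0.0438 with *Kap* level as a block) and -1.21 ± 0.27 in RC/RC:*Casp1*KO against RC/RC (adjusted p = 0.0252). *Efemp2* (fibulin-4) rose by 1.48 and *Efemp1* (fibulin-3) by 0.73 on the log2 scale in RC/RC (adjusted p = 0.0138 and 0.0351). *Efemp2* was also lower in RC/RC:*Casp1*KO than in RC/RC (-1.39 ± 0.30, adjusted p = 0.0228), whereas the adjusted p of *Efemp1* was 0.0579 (0.0284 with *Kap* level as a block). *Mfap2*, a core microfibril protein, rose by 1.39 in RC/RC (adjusted p = 0.0318). Without mouse RC139 the rises of *Efemp1* and *Mfap2* had adjusted p of 0.0774 and 0.0606.

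The small leucine-rich proteoglycans had the highest share of calls among the 5 role groups, with all 7 higher in RC/RC than in WT and 6 of 7 lower in RC/RC:*Casp1*KO than in RC/RC (9.76% and 4.41% of all genes). Without mouse RC139 these counts were 5 and 3, against 6.45% and 0.864% of all genes. Decorin (*Dcn*, ENSMUSG00000019929, mm10 chr10:97479500-97518162), which coats collagen fibrils and binds TGF-β, was at 33.5, 27.0, 35.1 and 29.3 CPM in WT, at 130.2, 266, 156 and 139 CPM in RC/RC and at 51.5, 60.6, 65.8 and 74.2 CPM in RC/RC:*Casp1*KO. The 3 groups were separate, with the RC/RC:*Casp1*KO mice about 2 times as high as WT. *Dcn* had log2 fold changes of 2.47 ± 0.24 in RC/RC (adjusted p = 0.000394), -1.46 ± 0.23 in RC/RC:*Casp1*KO against RC/RC (adjusted p = 0.00880) and 1.02 ± 0.13 in RC/RC:*Casp1*KO against WT (adjusted p = 0.00799). All 3 calls held with any mouse left out, with adjusted p of at most 0.00263, 0.0317 and 0.0359. Biglycan (*Bgn*), a relative of decorin that also acts as a danger signal at Toll-like receptors when released, was at 268, 195, 166 and 169 CPM in WT, at 569, 1025, 471 and 339.6 CPM in RC/RC and at 157, 222, 337 and 268 CPM in RC/RC:*Casp1*KO. The highest RC/RC:*Casp1*KO mouse, Del3_70, lay just under the lowest RC/RC mouse, RC143. *Bgn* rose in RC/RC (1.59 ± 0.33, adjusted p = 0.0126) and was lower in RC/RC:*Casp1*KO (-1.30 ± 0.34, adjusted p = 0.0420, and 0.0935 without mouse RC139). Fibromodulin (*Fmod*), which controls collagen cross-linking, was at 6.10, 7.999, 8.20 and 9.09 CPM in WT, at 13.2, 24.4, 19.5 and 20.2 CPM in RC/RC and at 12.3, 11.5, 13.3 and 10.4 CPM in RC/RC:*Casp1*KO. Mouse RC105 touched the RC/RC:*Casp1*KO range, and the log2 fold changes were 1.29 ± 0.20 (adjusted p = 0.00388) and -0.72 ± 0.18 (adjusted p = 0.0396, and 0.0953 without mouse RC139).

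The other 4 genes of this family also rose. Lumican (*Lum*) rose by 2.06 on the log2 scale (adjusted p = 0.0202), asporin (*Aspn*) by 1.85 (adjusted p = 0.0181), *Prelp* by 1.26 (adjusted p = 0.0141) and osteoglycin (*Ogn*) by 0.73 (adjusted p = 0.0341). In RC/RC:*Casp1*KO against RC/RC the log2 fold changes were -1.74 ± 0.43, -1.07 ± 0.38, -1.17 ± 0.28 and -0.90 ± 0.19, and only that of *Aspn* was not called (adjusted p = 0.0344, 0.0894, 0.0314 and 0.0203, and 0.0413 for *Aspn* with *Kap* level as a block). Without mouse RC139 the rises of *Lum* and *Ogn* had adjusted p of 0.0589 and 0.0853, and the decrease of *Lum* had 0.0879. *Lum* CPM were 4.01, 10.7, 3.60 and 8.71 in RC/RC, the 2 higher values being those of mice RC139 and RC143, and without both mice its log2 fold changes were 1.24 against WT and -0.89 in RC/RC:*Casp1*KO against RC/RC (adjusted p = 0.183 and 0.240). Genes of this family lie in clusters, and their neighbours were read as well. *Dcn* and *Lum* lie on mm10 chr10 beside *Kera* and *Epyc*, 2 proteoglycans of cornea and cartilage. No *Kera* reads were counted in any of the 12 mice. *Epyc* had 0 counts in WT, at most 27 counts in an RC/RC mouse and at most 3 in an RC/RC:*Casp1*KO mouse. *Aspn* and *Ogn* lie on chr13 beside *Omd* and *Ecm2*. *Ecm2* rose in RC/RC (1.10 ± 0.18, adjusted p = 0.00468) and was lower in RC/RC:*Casp1*KO (-0.66 ± 0.17, adjusted p = 0.0413), while *Omd* (osteomodulin) was not called (adjusted p = 0.402 and 0.164). *Fmod* and *Prelp* lie on chr1 beside *Optc*, which had at most 8 counts in a mouse and was not tested.

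Of the 4 basement membrane and large proteoglycan genes, *Nid1* alone was called, higher in RC/RC than in WT, where 9.76% of all genes were higher. Without mouse RC139, 1 of these 4 genes and 2 of the 4 latent TGF-β binding proteins were higher in RC/RC (6.45% of all genes). In RC/RC:*Casp1*KO against RC/RC edgeR then called none of either group, where 0.864% of all genes were lower. At an unadjusted p under 0.05, 1 of each group was lower. Nidogen-1, which links laminin to type IV collagen, had *Nid1* CPM of 86.4, 72.2, 64.9 and 70.5 in WT, 138, 213, 128 and 110.4 in RC/RC and 60.4, 78.3, 106 and 103 in RC/RC:*Casp1*KO. It rose in RC/RC (log2 fold change 1.01 ± 0.20, adjusted p = 0.0119), and all RC/RC:*Casp1*KO mice were below all RC/RC mice without a call (-0.77 ± 0.24, adjusted p = 0.0616, and 0.0404 with *Kap* level as a block). *Nid2* (nidogen-2) and *Hspg2* (perlecan), the heparan sulfate proteoglycan of basement membranes, had log2 fold changes of 0.09 ± 0.17 and 0.32 ± 0.25 in RC/RC (adjusted p = 0.753 and 0.410). Versican (*Vcan*), a hyaluronan-binding proteoglycan, was at 0.667, 0.190, 12.5 and 0.989 CPM in WT, at 3.17, 5.66, 3.60 and 1.501 CPM in RC/RC and at 0.887, 1.95, 3.08 and 4.53 CPM in RC/RC:*Casp1*KO. Mouse B6_4 was the highest of the 12 mice, and the other 3 WT mice and mouse Del3_42 were the 4 lowest. For *Vcan* the log2 fold change was -0.05 ± 1.01 with all mice (adjusted p = 0.980) and 2.44 without mouse B6_4 (adjusted p = 0.0316). In RC/RC:*Casp1*KO against RC/RC edgeR called none of the 4 genes, 1 was lower at an unadjusted p under 0.05, and DESeq2 called 1 lower. Of all genes 4.41%, 16.4% and 7.71% were lower in these 3 ways.

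Promoter sequences were available for 31 of the 43 genes in RefSeq (GRCm38.p6, the mm10 assembly). Motifs were searched in the 250 bases before the start, namely GGAATG, bound by TEAD, the DNA-binding partner of YAP, and TGANTCA, bound by AP-1, both on either strand, and the TATA box TATAAA on the strand of the gene. The TEAD letters were in 6 of 31 promoters (19.4%, against 11.8% of 17631 promoters), those of *Thbs4*, *Vtn*, *Fbln7*, *Mfap2*, *Ogn* and *Nid1*. The AP-1 letters were in 2 (6.45%, against 6.23%), those of *Tnxb* and *Efemp1*, and TATAAA was in 5 (16.1%, against 7.87%), those of *Tnc*, *Postn*, *Vtn*, *Ogn* and *Aspn*. The 3 motifs share no letters that would count a match under more than 1 of them. All this is a description of the letters in these windows. The 120 bases before the start are shown 5′ to 3′ on the strand of the gene for the 2 most abundant genes with an entry, *Sparc* (chr11:55420081-55420200, minus strand) and *Bgn* (chrX:73483481-73483600, plus strand), and for 2 called genes with a motif near the start, *Postn* (chr3:54360987-54361106, plus strand) and *Ogn* (chr13:49607895-49608014, plus strand). Capitals mark TATAAA at base -26 of *Postn* and GGAATG at base -86 of *Ogn*, counted to the first letter of the motif from the base before the start as -1. The stretches from *Sparc* and *Bgn* hold no capitals because none of the 3 motifs is in them.
Sparc: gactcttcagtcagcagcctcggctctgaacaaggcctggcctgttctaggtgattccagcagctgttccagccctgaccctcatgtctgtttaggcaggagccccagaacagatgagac
Bgn: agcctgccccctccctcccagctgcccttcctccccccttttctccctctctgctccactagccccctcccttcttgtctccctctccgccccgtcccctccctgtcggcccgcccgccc
Postn: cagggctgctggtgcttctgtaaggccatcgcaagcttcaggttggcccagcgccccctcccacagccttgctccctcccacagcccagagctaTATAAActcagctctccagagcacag
Ogn: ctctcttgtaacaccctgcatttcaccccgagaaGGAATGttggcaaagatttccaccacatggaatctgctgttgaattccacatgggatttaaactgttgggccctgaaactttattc

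Matrix genes outside the 43 were read from wider lists, whose counts stand beside 9.76% higher and 3.18% lower of all genes in RC/RC against WT. The shares of all genes in RC/RC:*Casp1*KO against RC/RC were 7.23% (higher) and 4.41% (lower). Without mouse RC139, other matrix glycoproteins had 12 higher and collagens 12 higher in the first comparison, and 4 and 3 lower in the second. In those fits 6.45% of all genes were higher in the first comparison and 0.864% lower in the second. Of 46 other matrix glycoproteins tested, 15 were higher and 1 lower in RC/RC than in WT, and of 47 tested 11 were lower and 1 higher in RC/RC:*Casp1*KO than in RC/RC, with medians of 0.64 and -0.66. The 3 largest increases were those of the matricellular CCN gene *Wisp2*, by 5.04 on the log2 scale, of hemicentin-1 (*Hmcn1*), by 2.54, and of the CCN gene *Cyr61*, by 2.13 (adjusted p = 0.00312, 0.00970 and 0.000339). *Vwa1*, the cartilage and basement membrane protein WARP, fell by 0.96 (adjusted p = 0.0128). In RC/RC:*Casp1*KO against RC/RC the largest decreases among called genes were those of *Srpx* (-1.35 ± 0.32), *Ctgf* (-1.22 ± 0.31) and *Sparcl1* (-1.20 ± 0.25), with adjusted p of 0.0296, 0.0366 and 0.0217, and *Fras1*, of the basement membrane Fraser complex, was higher (1.04 ± 0.20, adjusted p = 0.0171). Of the collagen genes, 13 of 35 tested were higher in RC/RC (37.1%, median 0.57) and 6 lower and 3 higher of 36 in RC/RC:*Casp1*KO against RC/RC (median -0.48). *Col11a1*, *Col8a2* and *Col1a1* rose most in RC/RC, by 4.29, 3.30 and 3.001 (adjusted p = 0.000575, 0.00195 and 0.000806). *Col1a1*, *Col3a1* and *Col1a2* had the largest decreases of the called collagens in RC/RC:*Casp1*KO (-1.87 ± 0.47, -1.66 ± 0.40 and -1.51 ± 0.36, with adjusted p of 0.0367, 0.0335 and 0.0307), and *Col27a1*, *Col4a3* and *Col4a4* were higher, by 1.21, 0.997 and 0.75 (adjusted p = 0.00482, 0.0399 and 0.0469).

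Of 10 other secreted proteoglycans tested (10% called in each of these comparisons, near the shares of all genes), *Spock2* (testican-2) was the one called higher in RC/RC (0.91 ± 0.22, adjusted p = 0.0236) and *Srgn* (serglycin, of blood cell granules) the one called lower in RC/RC:*Casp1*KO than in RC/RC (-0.80 ± 0.19, adjusted p = 0.0323). Of 16 cell surface proteoglycans and hyaluronan receptors, 6 were higher in RC/RC (37.5%). *Cd44*, the main hyaluronan receptor, rose by 2.52, the glypican *Gpc6* by 1.55 and *Hmmr* by 1.51 (adjusted p = 0.000194, 0.00312 and 0.0347). The syndecans *Sdc3* and *Sdc1* were lower in RC/RC:*Casp1*KO than in RC/RC (-0.84 ± 0.20 and -0.76 ± 0.18, adjusted p = 0.0318 and 0.0294), and *Cspg4* (NG2) was higher (0.48 ± 0.11, adjusted p = 0.0281). Of 33 enzymes that build or trim glycosaminoglycan chains, 5 were higher and 1 lower in RC/RC (18.2% called), with a median of -0.01, and 3 were lower in RC/RC:*Casp1*KO than in RC/RC and 1 higher (12.1% called). These shares stand beside 12.9% and 11.6% of all genes called in the same comparisons, so the second is near that of all genes. The sulfatase *Sulf1*, the chondroitin sulfotransferase *Chst12* and the dermatan sulfate epimerase *Dse* rose most, by 1.60, 1.60 and 1.14 (adjusted p = 0.00320, 0.00901 and 0.00491), and *Extl2* fell by 0.52 (adjusted p = 0.0484). *Chst12*, *Dse* and the chondroitin polymerizing factor *Chpf* were lower in RC/RC:*Casp1*KO than in RC/RC (-1.15 ± 0.28, -0.87 ± 0.21 and -0.76 ± 0.17, adjusted p = 0.0330, 0.0329 and 0.0244), and the sulfotransferase *Chst3* was higher (0.68 ± 0.17, adjusted p = 0.0372).

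Markers of several cell types moved with the matrix genes, and their part in the results was not tested. The 7 fibroblast and pericyte markers summed to 235 to 296 CPM in WT, 568 to 1355 CPM in RC/RC and 279 to 566 CPM in RC/RC:*Casp1*KO. In RC/RC 5 of them were higher, the collagens *Col1a1* and *Col3a1* and the genes *Pdgfra*, *Pdgfrb* and *Gli1*, of which *Pdgfra* and *Pdgfrb*, the receptors that mark these cells, rose by 0.95 and 0.95 (adjusted p = 0.0221 and 0.0132). *Col3a1* was their most abundant gene in RC/RC, at 352 CPM, and with *Col1a1*, at 226 CPM, it made up most of the sum. In RC/RC:*Casp1*KO against RC/RC, 3 of the 7 were lower, *Col1a1*, *Col3a1* and *Rgs5*, and the pericyte gene *Cspg4* was higher (0.48 ± 0.11). *Gli1* was at 2.82 CPM in RC/RC compared with 2.53 CPM in RC/RC:*Casp1*KO (adjusted p = 0.727). The 5 smooth muscle and myofibroblast markers summed to 131 to 173 CPM in WT, 203 to 570 CPM in RC/RC and 117 to 127 CPM in RC/RC:*Casp1*KO. *Tagln* and *Acta2*, the smooth muscle actin of myofibroblasts, rose in RC/RC (1.45 ± 0.32 and 1.29 ± 0.32, adjusted p = 0.0163 and 0.0302) and were lower, with desmin (*Des*), in RC/RC:*Casp1*KO than in RC/RC (-1.73 ± 0.32, -1.67 ± 0.31 and -1.16 ± 0.25, adjusted p = 0.0146, 0.0158 and 0.0249). The 6 leukocyte markers summed to 94.0 ± 6.28 CPM in WT, 156 ± 31.8 CPM in RC/RC and 160 ± 36.5 CPM in RC/RC:*Casp1*KO (mean ± SD, n = 4), and 5 of them rose in RC/RC, among them *Itgam* by 1.76 (adjusted p = 0.000688). None of the 6 was called in RC/RC:*Casp1*KO against RC/RC with edgeR or DESeq2, and in edgeR 1 was lower at an unadjusted p under 0.05.

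**Figure D4:**
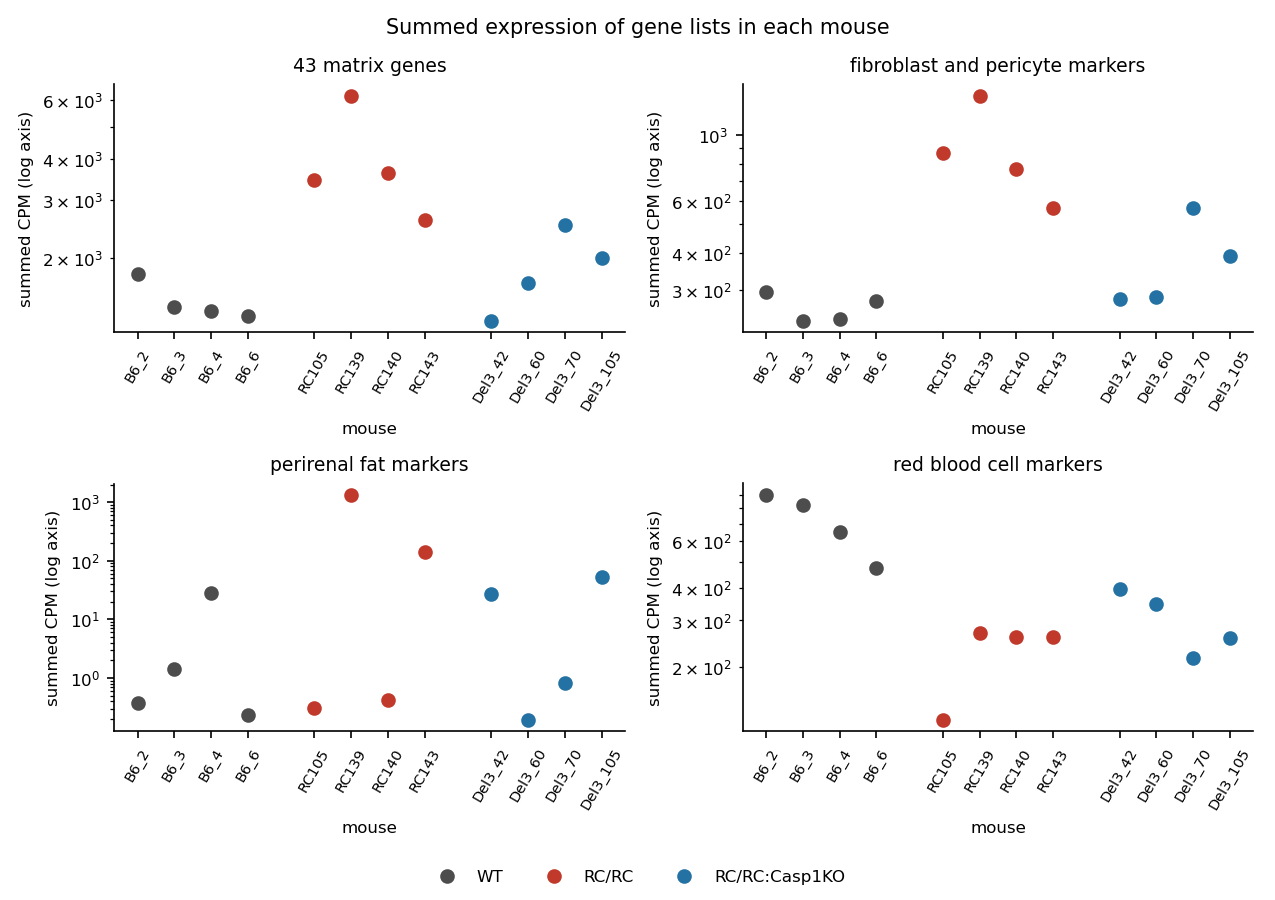
Summed CPM on log axes in each mouse for the 43 matrix genes and for markers of fibroblasts and pericytes, of perirenal fat and of red blood cells, with mice named by number and coloured by group. The sum of the matrix genes is higher in all 4 RC/RC mice (2608 to 6197) than in any other mouse (at most 2513), and mouse RC139 is the highest for matrix, fibroblast and fat markers.

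Several proximal tubule markers moved the other way. The 6 proximal tubule markers summed to 20933 ± 10304 CPM in WT, 14757 ± 7919 CPM in RC/RC and 20281 ± 7350 CPM in RC/RC:*Casp1*KO (mean ± SD, n = 4). These sums include *Kap*, which was 18364 of 29532 CPM in mouse B6_4 and 2339 of 9883 CPM in mouse B6_2. *Cubn* and *Slc5a2* were lower in RC/RC (-1.08 ± 0.27 and -1.23 ± 0.28, adjusted p = 0.0319 and 0.0199), and *Lrp2* and *Cubn* were higher in RC/RC:*Casp1*KO than in RC/RC (1.52 ± 0.28 and 1.34 ± 0.25, adjusted p = 0.0144 and 0.0146). *Slc12a3*, of the distal tubule, fell by 2.03 in RC/RC and was higher by 1.44 in RC/RC:*Casp1*KO (adjusted p = 0.00444 and 0.0454). Among the other markers of thick limb and collecting duct, the water channel *Aqp2* and the sodium channel subunit *Scnn1g* had positive log2 fold changes in RC/RC (1.05 ± 0.34 and 0.51 ± 0.21, adjusted p = 0.0739 and 0.148) and -0.62 ± 0.25 and -0.21 ± 0.18 in RC/RC:*Casp1*KO against RC/RC (adjusted p = 0.130 and 0.448), and DESeq2 called 1 marker of the list higher in RC/RC. Of the 4 podocyte markers 1 was called in RC/RC against WT, *Nphs1*, which fell by 0.62 (adjusted p = 0.0372). The log2 fold changes of the 4 ran from -0.668 to 0.305, with 3 negative and 1 positive. All 5 red blood cell genes were lower in RC/RC than in WT, with a median of -1.78, and 4 of the 5 were also lower in RC/RC:*Casp1*KO than in WT, with a median of -1.33. None of the 4 endothelial markers was called in RC/RC against WT with edgeR, where 2 were higher at an unadjusted p under 0.05, and DESeq2 called 1 higher. In RC/RC:*Casp1*KO against RC/RC none of the 4 was called with edgeR, 3 were lower at an unadjusted p under 0.05, and DESeq2 called 2 lower.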

How the data were processed

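Right kidneys of 12 mice were quartered and sequenced as poly(A) libraries. Raw counts of reads per gene were deposited by the authors in a table with Ensembl IDs, symbols, gene lengths and mm10 positions. CASAVA 1.8 and STAR are named in the submitters' processing notes. The counting tool, annotation and strand setting are not given in the sources used here, so reads from overlapping or antisense genes could not be told apart. The table also holds FPKM and DESeq2 fold changes and p-values of the authors, which were not used. No columns belong to other series (0 counted).

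Columns were assigned to groups by name. They carry a mouse number but neither sex nor replicate number. No pair of mice agreed within sampling noise by chi-square. Each comparison of 4 against 4 mice was fitted separately in edgeR 4.0.16 (R 4.3.3, limma 3.58.1), with filterByExpr, TMM factors and the quasi-likelihood test, and p-values were adjusted by Benjamini-Hochberg over all genes tested. SE was the size of the log2 fold change over the root of its F statistic. The fits were tested on simulated data. CPM and FPKM were scaled by TMM factors of all 12 libraries (18019819 to 24869454 reads). Where several rows carried a symbol, the row with the highest count was used. Each of the 43 genes has a single row, so the alternative of summed rows, named below, repeats the main fit and tests nothing. Alternatives were DESeq2 1.42.0, RLE factors, library size alone, no filter, at least 10 counts in every mouse, a fit of all 12 mice, summed rows and leaving out each mouse, and, chosen after seeing the data, leaving out mice with fat markers and a block of *Kap* level (over or under 10000 CPM).

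Members and lists were chosen with earlier results of these data known. Values in every mouse were given for called members (at most the 20 with the smallest p), the most abundant member of each role group and *Vcan*. From other lists up to 3 called genes with the largest change in each direction were given. CCN genes appear under older symbols, and Adgre1 was not matched. Promoters came from RefSeq.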

Additional observations from a re-analysis of the deposited data

Results flagged for a closer look

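In 13 of 129 groups of 4 mice (43 genes in 3 groups), 1 mouse stood apart from the other 3, with its gap to the nearest mouse as a share of the range of the group above Dixon's critical value for 4 samples. Chance flags about 1 in 20 such groups, and the genes of a mouse are not independent. Mouse RC139 stood high for 6 genes, *Smoc1* (8.20 CPM against at most 2.96 in the other RC/RC mice), *Dpt* (20.8 against 8.98), *Islr* (38.7 against 18.8), *Fbln1* (79.5 against 39.9), *Fbln2* (24.9 against 13.3) and *Mfap5* (19.7 against 7.79). This was the mouse with the most fat markers, and the part of fat in these values was not tested. Mouse Del3_70 stood high for *Ltbp2* (55.4 CPM against at most 6.96 in the other mice of its group), *Thbs2* (36.3 against 14.1) and *Mfap5* (7.36 against 2.48), with fat markers at 0.828 CPM. Mouse B6_4 stood high for *Tnc* (20.7 CPM against 7.48) and *Vcan* (12.5 against 0.989), and it also had the most urothelial and mesothelial markers of the WT mice. Mouse B6_2 stood high for *Fbln7* (16.6 CPM against 13.3) and *Efemp2* (18.3 against 10.9).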

How the results depend on the processing

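The number of the 43 genes higher in RC/RC than in WT, 30, was 27 to 35 under the other processing choices and 24 to 35 with 1 mouse left out. The number lower in RC/RC:*Casp1*KO than in RC/RC, 18, was 9 with library size alone and 27 with DESeq2, and 4 to 22 with 1 mouse left out (4 without mouse Del3_60, 5 without Del3_42 or Del3_105, 6 without mouse RC140, 11 without mouse RC139). Of all genes, 4.41% were lower with all mice and 0.864% without mouse RC139. Shares of all genes without any other single mouse are not given here. The number higher in RC/RC:*Casp1*KO than in WT, 2, was 9 with DESeq2, 4 with library size alone, 5 in 1 fit of all 12 mice and 1 to 3 with 1 mouse left out. Without the 2 RC/RC mice over 100 CPM of fat markers, chosen after seeing the data, the first 2 counts were 24 and 0. Without the 5 mice over 10 CPM all 3 counts were lower, at 19, 0 and 0, with fewer mice in every fit. With *Kap* level as a block, also chosen after seeing the data, the 3 counts were 35, 23 and 7, and 1 gene was lower in RC/RC:*Casp1*KO than in WT, where none was without the block. Library size alone moved the median of all genes from about 0 to 0.131 in RC/RC:*Casp1*KO against WT. Of the single-gene results, *Vcan* reversed, from -0.05 to 2.44 in RC/RC against WT without mouse B6_4 (-0.45 to 2.44 over all mice left out). The cause of these changes was not tested. In single-gene results under the other processing choices, 835 kept their direction and side of the threshold, 33 passed it newly, 11 no longer passed and 5 moved. Summed rows are among these choices and could only keep a result, as each gene has a single row. With 1 mouse left out, 859 kept them, 24 passed newly, 99 no longer passed and 41 moved, and with the alternatives chosen after seeing the data 258 kept them, 16 passed newly, 55 no longer passed and 13 moved.

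No paired analysis was possible because the columns carry no replicate numbers. Only 4 mice per group limit the precision, and the sex of a mouse is not given. Reads without molecular identifiers are not independent molecules, and genes under 10 reads in a mouse, such as *Fbn2* and *Vtn*, have large counting error.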

Other observations

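Some mice of a group were closer than others when their counts were compared over all genes by chi-square per degree of freedom. The value was 17.7 between mice B6_2 and B6_3, 16.4 between B6_4 and B6_6, 15.7 between Del3_60 and Del3_105, 31.8 between Del3_42 and Del3_70 and 37.2 between RC140 and RC143. The other pairs within a group, RC105 and RC139 among them (69.7), had values of 67.1 to 128. The close pairs had *Kap* on the same side of 10000 CPM. The labels do not say what they share.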
